A study of Oryza sativa with 40 samples.

Results

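The end of the night was compared with the middle of the night in rice seedling leaves. The end of the night was represented by 4 arrays, 2 biological replicates at 8 h (8 am of day 1) and 2 at 32 h (8 am of day 2), and the middle of the night by the 2 replicates at 28 h (4 am of day 2), so that 6 of the 40 arrays of the series were used. All 6 came from leaves of 17-day-old seedlings of Oryza sativa subsp. japonica var. Nipponbare, raised on wet filter paper under glass, with 12 h of light at 28 °C and a night at 25 °C. The night ran from 20 h to 32 h, so 28 h lay 8 h after its start and 4 h before its end. Whether the 8 am leaves had already met light when they were cut is not given in the sources used here. The 32 h and 28 h leaves came from day 2 and the 8 h leaves from day 1, so the end and the middle of the night can be set against each other within 1 day by the 32 h arrays alone. Leaves are a mixture of cell types, so less transcript per cell and fewer cells of a type cannot be told apart. The other 34 arrays entered only through the estimate of the spread, the course over the day and the comparison with flag leaves, the last leaf below the panicle.

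A leaf at night lives on starch and sugars stored in the light, and many genes of photosynthesis are transcribed in a daily rhythm. Light-harvesting proteins bind the chlorophylls that feed the photosystems, and chlorophyll itself is made in the plastid from magnesium protoporphyrin. In plants the circadian clock is a circuit of transcription factors with morning members such as LHY, a following wave of pseudo-response regulators (PRRs), and evening members such as GIGANTEA, PCL1 and PRR1 joined by mutual regulation, and it sets the time of day at which many photosynthesis and sugar genes are transcribed.

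Signals were in arbitrary units, with a median over rice probe sets between 59.1 and 64.8 on the end-of-night arrays and of 56.1 and 59.7 on the 28 h arrays. Replicates of a time point correlated at 0.978 to 0.981 across the tested probe sets (Pearson's r of log2 signals; probe sets are not independent replicates). The 32 h arrays correlated with the 28 h arrays at 0.952 to 0.970 and with the 8 h arrays at 0.951 to 0.965, while the 8 h and 28 h arrays correlated at 0.938 to 0.952. Poly-A spike-in controls, RNAs added to each sample before labelling, had a geometric mean of 1569 to 1751 on the second replicates and of 364 to 434 on the first, and this split was alike at the 3 times. The ratio of the 3′ to the 5′ probe set of the Gapdh control lay between 2.61 and 4.87 at the end of the night and was 3.78 and 2.35 at 28 h. Leaf identity was checked with 6 leaf genes, 5 of them tested, but 3 of these are the light-harvesting genes described below, so their sum (89042 to 111666 at the end of the night and 51751 to 54326 at 28 h) moves with the results. Of the others, Rubisco activase (OsrcaA1) gave 31162 and 28499 at 8 h and 27510.1 and 34647 at 32 h, against 22895 and 24173 at 28 h, and the Rubisco small subunit OsrbcS gave 26335 and 19882 at 8 h and 19959 and 21761 at 32 h, against 23158 and 19402 at 28 h. Both leaf genes were thus bright on all 6 arrays. The 11 seed storage genes (5 tested) summed to 4136 to 4515 at the end of the night and 5000.1 to 5695 at 28 h, and the 3 anther genes (1 tested) to 385 to 461 and 303 to 402 in the same samples. The part of these differences in the results was not tested.

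Of 57194 rice probe sets, 24298 had a mean signal of at least 100 over the 20 seedling arrays and were tested. With limma and Benjamini-Hochberg adjustment, 757 probe sets (3.12%) were higher and 862 (3.55%) lower at the end of the night at an adjusted p under 0.05, and on each of these 1619 (6.66%) all 4 end-of-night arrays lay on one side of both 28 h arrays. Without any test, 11.7% of tested probe sets were separated in this way upward and 16.2% downward. A log2 difference of at least 1 was reached by 290 of the higher (1.19% of those tested) and 194 of the lower (0.798%). The largest increases exceeded the largest decreases, up to 4.70 against -3.08 among called probe sets. With the replicate number as a block the calls came to 2929 (12.1%; 1259 or 5.18% higher and 1670 or 6.87% lower). Median centring of the arrays gave 1507 calls (6.2%), with 885 (3.64%) higher and 622 (2.56%) lower, so 58.7% of calls were higher in place of 46.8%. Leaving out the first or the second 28 h replicate gave 512 and 607 calls. An annotated gene name was held by 199 of the called probe sets.

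**Figure D1:**
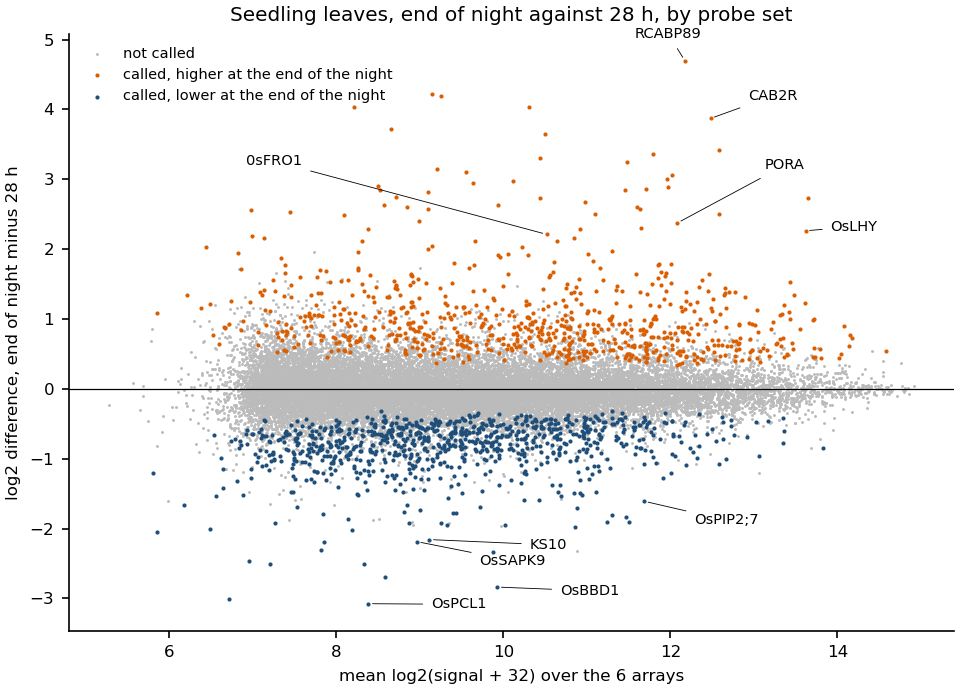
Each point is 1 of the 24298 tested probe sets, placed by its mean log2(signal + 32) over the 6 arrays and its log2 difference, end of night minus 28 h, with orange for 757 called higher, blue for 862 called lower and grey for the rest. The upper points reach further from 0 than the lower ones, with RCABP89 at 4.70 and OsPCL1 at -3.08.

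The 2 named genes with the largest increases, RCABP89 and CAB2R, encode light-harvesting proteins. Among tested genes matched by symbol, all 3 light-harvesting, 3 of 7 chlorophyll synthesis and 2 of 5 photosystem and electron transport genes rose. None of the 15 fell, where 3.12% of all tested probe sets were called higher and 3.55% lower. RCABP89 (LOC_Os03g39610), a chlorophyll a/b binding protein of the antenna, had signals of 15459 and 15866 at 8 h and 11298 and 12537 at 32 h, against 429 and 573 at 28 h. Every end-of-night array was far above both 28 h arrays (log2 difference 4.70 ± 0.16, adjusted p = 1.24e-09; ± is the SE of the limma fit here and below, 4 arrays against 2). Its mean was 12211 at 20 h and 1264 at 24 h, so 28 h was the lowest of the 3 night samples, and it was 24954 at 12 h. CAB2R, another antenna protein, gave 16429.6 and 16707 at 8 h and 10545 and 13096 at 32 h, against 853 and 1001 at 28 h (3.87 ± 0.22, adjusted p = 4.82e-08), and its other, brighter probe set gave a difference of 2.74. The third, RCABP69, had the smallest difference of the 3 (1.32 ± 0.16, adjusted p = 0.000134). The groups did not overlap for any of the 3 antenna genes, as for 11.7% of all tested probe sets in this direction. Within day 2, the 32 h minus 28 h difference of RCABP89 was 4.50 (adjusted p = 3.13e-08).

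PORA, the light-dependent protochlorophyllide oxidoreductase, gave 11975 and 10289.7 at 8 h and 5191 and 4879 at 32 h, against 1363 and 1472 at 28 h. It rose (2.37 ± 0.31, adjusted p = 0.000266) but the 8 h arrays stood above the 32 h arrays (32 h minus 8 h -1.14, adjusted p = 0.00201). CHLH, the large subunit of the magnesium chelatase that opens the chlorophyll branch, gave 6902 and 5478 at 8 h and 6586 and 5828 at 32 h, against 1762 and 1761 at 28 h (1.79 ± 0.21, adjusted p = 0.000107), and here the 2 end-of-night times were alike in level. CAO, chlorophyllide a oxygenase, which makes chlorophyll b and was outside the chlorophyll list, gave 7702 and 6643 at 8 h and 8537 and 7717 at 32 h, against 2651 and 2491 at 28 h (1.56 ± 0.14, adjusted p = 1.31e-05). CHLP, the geranylgeranyl reductase that supplies the chlorophyll tail, rose less (0.66 ± 0.14, adjusted p = 0.0108), and its call was lost without either 28 h replicate (adjusted p = 0.152 without the first and 0.0668 without the second). For the chelatase subunits CHLD and CHLI, for CHLG and for PORB the differences were -0.12, -0.30, -0.35 and 0.20, none of which passed the test.

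OsPSAG, a subunit of photosystem I, gave 8865 and 7901 at 8 h and 8322 and 7966 at 32 h, against 2564 and 2669.5 at 28 h (1.65 ± 0.12, adjusted p = 1.13e-06), and its other probe set had a difference of 0.92. The 4 end-of-night arrays lay close together. GOS5, the photosystem I subunit H, rose by less (0.49 ± 0.12, adjusted p = 0.0257), and its call was lost when any of 4 arrays was left out (adjusted p from 0.0617 to 0.208; both 8 h and both 28 h replicates). Only Rubisco activase (OsrcaA1) and the Rubisco small subunit gene OsrbcS were both tested and matched by symbol to the carbon fixation list. Their brightest probe sets had differences of 0.37 (adjusted p = 0.137) and 0.04 (adjusted p = 0.929). The other 3 probe sets of OsrcaA1 ranged from 0.40 to 0.55, of which 1 was called (0.54, adjusted p = 0.037), and the other 2 of OsrbcS from 0.40 to 0.65, with no call. In photorespiration, 0 of 5 genes passed in limma, with a median of -0.43, against -0.03 over all tested probe sets. At an unadjusted p under 0.05 there were 2 of the 5, where 4914 of all 24298 tested probe sets were.

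**Figure D2:**
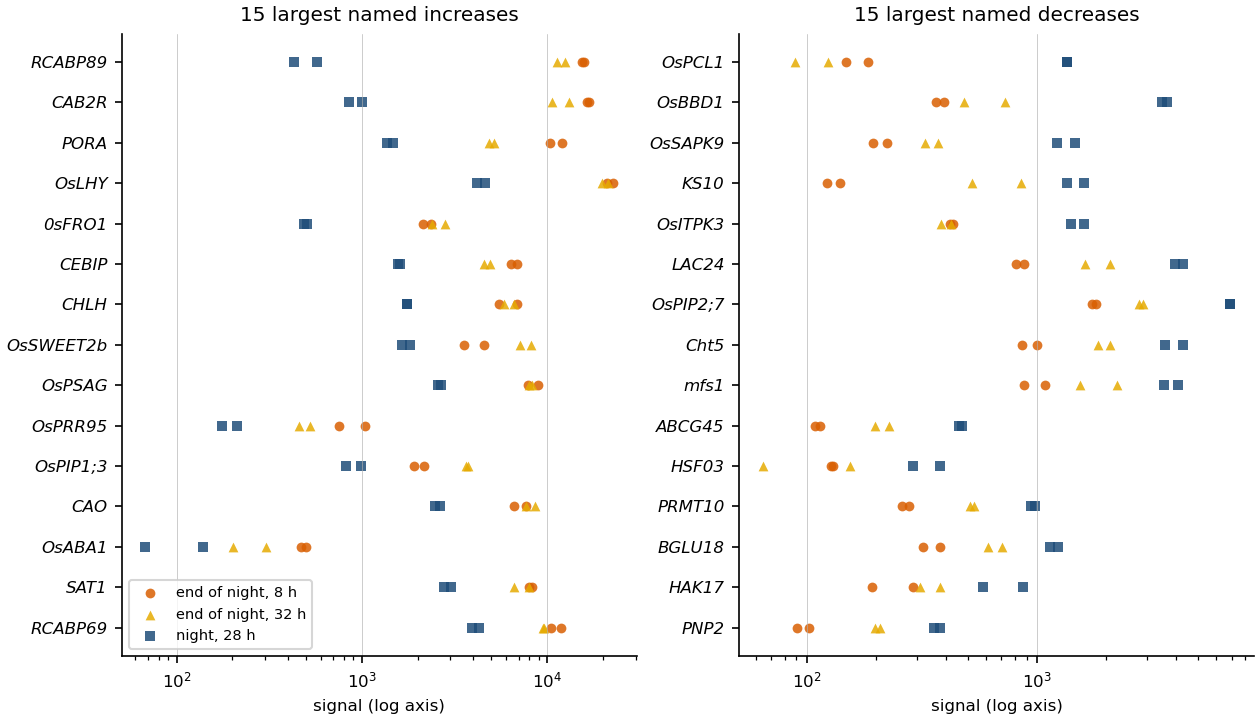
Signals (log axis) of the 15 named genes with the largest increases (left) and the 15 with the largest decreases (right), 1 row a gene, with circles for 8 h, triangles for 32 h and squares for 28 h, each point 1 array. In every row the 4 end-of-night points lie on one side of both 28 h points, and among the decreases the 32 h points often lie between the 8 h and 28 h points, as for KS10 and PRMT10.

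Within the clock list the morning gene OsLHY rose and the evening genes OsPCL1 and GI fell. All 7 genes of the list were tested: 2 rose, 2 fell and 3 did not pass, beside 3.12% higher and 3.55% lower over all tested probe sets. OsLHY, the morning MYB factor, gave 22719 and 21123 at 8 h and 19708 and 21352 at 32 h, against 4620.1 and 4173 at 28 h (2.26 ± 0.11, adjusted p = 1.64e-08). The 8 h and 32 h arrays were at one level (32 h minus 8 h -0.09, adjusted p = 0.776), and the 28 h level already stood above the means of 674 at 20 h and 599 at 24 h. Within day 2, 32 h minus 28 h was 2.22 for OsLHY. OsPRR95, a pseudo-response regulator, gave 1043 and 755 at 8 h and 524 and 459.7 at 32 h, against 212 and 175 at 28 h (1.63 ± 0.23, adjusted p = 0.000487). It was still far below its mean of 7461 at 12 h, and the 8 h arrays were above the 32 h arrays (-0.82, adjusted p = 0.00379). In the fit of the 6 arrays alone this call was lost (adjusted p = 0.0557).

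OsPCL1, the rice relative of the evening factor LUX, gave 147 and 184 at 8 h and 88.3 and 123 at 32 h, against 1352 and 1349.9 at 28 h (-3.08 ± 0.36, adjusted p = 0.000113), the largest decrease of any named gene. Its means over the preceding night were 17297 at 20 h and 6879.6 at 24 h, so the decrease to the end of the night continued a longer decline. GI (GIGANTEA) gave 288 and 244 at 8 h and 216 and 191 at 32 h, against 399 and 329 at 28 h (-0.58 ± 0.15, adjusted p = 0.0361), a small decrease beside its mean of 13819.6 at 20 h. Its call was lost when any of 5 arrays was left out (adjusted p from 0.0567 to 0.364), all except the first 8 h replicate, and with median centring (adjusted p = 0.0539). OsPRR1, the rice TOC1, had a difference of -0.72 (adjusted p = 0.0659, and 0.0344 with the replicate block, the only clock gene whose call the block added). OsPRR37 and OsPRR73 had differences of -0.38 and -0.06, and their groups overlapped.

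**Figure D3:**
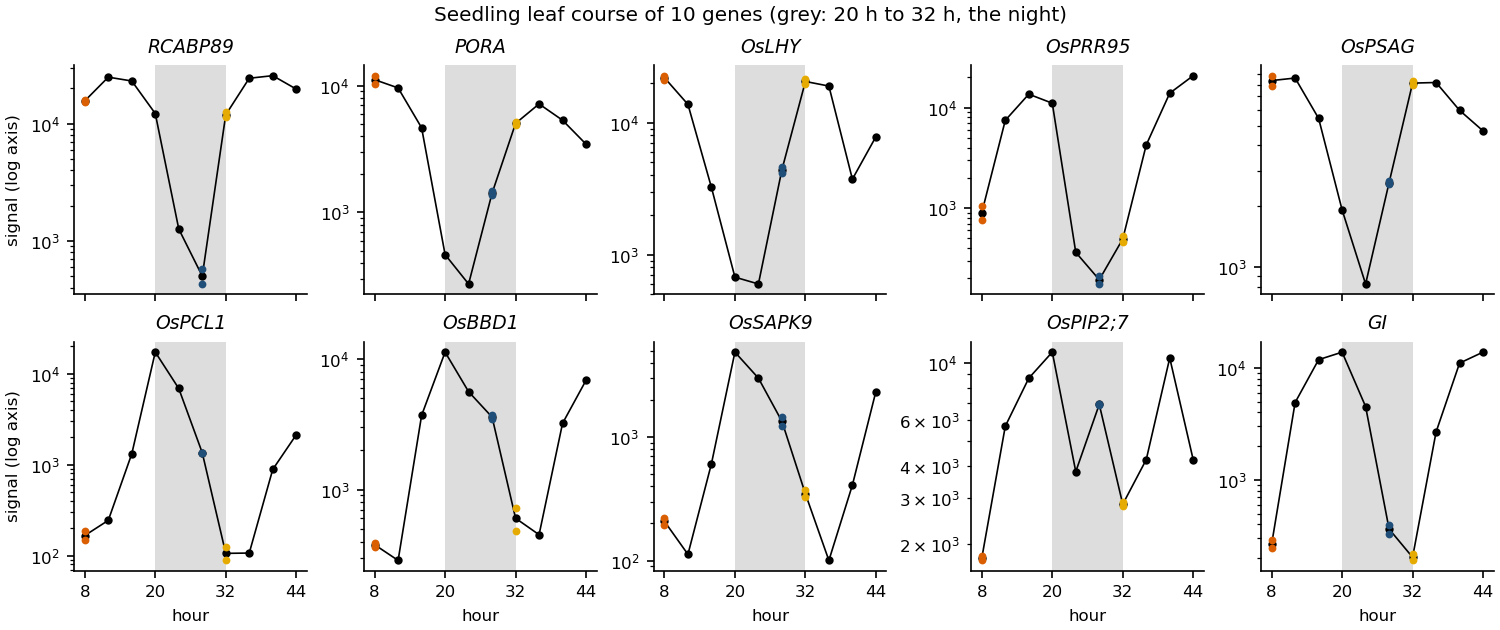
Mean signal (log axis, line and black points, 2 arrays a time point) of 10 genes in seedling leaves over the 10 sampling times from 8 h to 44 h, with the single arrays of 8 h (orange), 32 h (yellow) and 28 h (blue) and the night in grey. OsLHY and OsPSAG climb from 24 h through 28 h to 32 h, RCABP89 is lowest at 28 h, and OsPCL1, OsBBD1 and OsSAPK9 decline through the night from 20 h.

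Of 6 genes of carotenoid and abscisic acid synthesis 2 rose and none fell, beside 3.12% and 3.55% of all probe sets. With the replicate block PDS, phytoene desaturase, also passed, as lower (-0.43, adjusted p = 0.0226, and 0.281 without the block). OsPSY2, a phytoene synthase, the first enzyme of the carotenoid route, gave 4090.5 and 3687 at 8 h and 5179 and 5029 at 32 h, against 2299 and 2113 at 28 h (1.00 ± 0.14, adjusted p = 0.000558). OsABA1, zeaxanthin epoxidase, gave 468 and 502 at 8 h and 304 and 201 at 32 h, against 139.5 and 68.0 at 28 h (1.54 ± 0.30, adjusted p = 0.00627), with the 2 times and the 2 replicates of 28 h well apart, and its call was lost without the second 28 h replicate (adjusted p = 0.140).

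Among 14 sugar transport genes 2 rose, beside 3.12% of all probe sets. OsSWEET2b, a sugar transporter, gave 4557 and 3546 at 8 h and 8187 and 7131 at 32 h, against 1809.5 and 1636 at 28 h (1.67 ± 0.27, adjusted p = 0.00155), and here the 32 h arrays were the higher (0.92, adjusted p = 0.0112). In the fit of the 6 arrays alone its call was lost (adjusted p = 0.0632). OsSWEET14 also rose (0.97 ± 0.27, adjusted p = 0.045), with the call lost when any of 5 arrays was left out (adjusted p from 0.0645 to 0.374; all except the first 32 h replicate). OsTPP2, a trehalose-6-phosphate phosphatase, was the 1 gene of 9 in the sugar starvation list that passed: it gave 466 and 479.9 at 8 h and 388 and 391 at 32 h, against 214 and 222 at 28 h (0.88 ± 0.15, adjusted p = 0.00216). Of 18 sucrose genes 2 rose, NIN1, a neutral invertase (0.63 ± 0.12, adjusted p = 0.00672), and OsSPS2, a sucrose-phosphate synthase (0.70 ± 0.15, adjusted p = 0.0124). Without the first 28 h replicate the NIN1 call was lost (adjusted p = 0.150), and without the first or the second the OsSPS2 call was lost (0.138 and 0.0921). With the replicate block OsSPS4F, another sucrose-phosphate synthase, passed as lower (-0.31, adjusted p = 0.0499, and 0.233 without the block). In limma none of 5 genes matched by symbol to starch synthesis passed, and none of 5 matched to starch breakdown. Their medians were -0.05 and -0.18. At an unadjusted p under 0.05 there were 0 and 0, where 4914 of all 24298 tested probe sets were, and 0 passed with the replicate block. The synthesis list took in OsSSI2, whose place in that pathway was not checked. It did not hold the starch synthase LOC_Os01g52250 described below, which rose.

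The study had itself listed starch and sucrose probe sets as diurnal from these samples, so their count is not independent of the arrays: of 77 tested, 4 were higher (NIN1 among them) and 2 lower, beside 3.12% and 3.55% of all probe sets. With the replicate block 13 passed (8 higher, 5 lower), where 12.1% of all probe sets did. LOC_Os01g69030, described as a sucrose-phosphate synthase, gave 4134 and 3905 at 8 h and 4648 and 4185 at 32 h, against 2177 and 2322 at 28 h (0.90 ± 0.15, adjusted p = 0.00166). LOC_Os01g63810, with a starch binding domain, rose (1.19 ± 0.19, adjusted p = 0.00152), as did the starch synthase LOC_Os01g52250 (1.00 ± 0.17, adjusted p = 0.00242; adjusted p = 0.0519 without the first 28 h replicate). The isoamylase LOC_Os08g40930, a debranching enzyme, fell (-1.03 ± 0.24, adjusted p = 0.0199), but not when any of 4 arrays was left out (adjusted p from 0.0508 to 0.157; both 8 h and both 28 h replicates). Of the other loci that the study had followed by real-time RT-PCR, LOC_Os07g22930 had a difference of 0.61 (adjusted p = 0.29), LOC_Os06g30310 of -0.43 (adjusted p = 0.247) and LOC_Os07g46790, the glucanotransferase DPE2, of -0.18 (adjusted p = 0.507).

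Nutrient and water transport genes changed in both directions. 0sFRO1, a ferric-chelate reductase, gave 2138 and 2348 at 8 h and 2399 and 2825 at 32 h, against 504 and 489 at 28 h (2.21 ± 0.25, adjusted p = 9.98e-05). AMT1, an ammonium transporter, and GLN1-1, a cytosolic glutamine synthetase, were the 2 of 8 nitrogen genes that rose, beside 3.12% of all probe sets. With the replicate block NIA1 of this list also passed as higher (0.49, adjusted p = 0.0432, and 0.0623 without the block). AMT1 gave 7764 and 8247 at 8 h and 8957 and 9671 at 32 h, against 4922 and 5529 at 28 h (0.72 ± 0.12, adjusted p = 0.00193), and its call was lost without the first 28 h replicate (adjusted p = 0.0588). GLN1-1 gave 7710.1 and 7609 at 8 h and 7846 and 7879 at 32 h, against 5077 and 5060.4 at 28 h (0.61 ± 0.09, adjusted p = 0.00103). Its replicates were nearly equal at each time, and in the fit of the 6 arrays alone its adjusted p was 0.0507. SAT1 rose too (1.40 ± 0.13, adjusted p = 1.14e-05), although another probe set of the gene had a difference of 0.43.

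Of 21 aquaporins, the water channels of cell membranes, 3 rose and 2 fell, beside 3.12% and 3.55% of all probe sets. With the replicate block 5 rose and 2 fell, beside 5.18% and 6.87%. OsPIP1;3 gave 1908 and 2172 at 8 h and 3632 and 3742 at 32 h, against 818 and 983 at 28 h (1.58 ± 0.26, adjusted p = 0.00193), with the higher level at 32 h, and the call was lost in the fit of the 6 arrays alone (adjusted p = 0.0565). OsPIP2;7 gave 1726 and 1801 at 8 h and 2899 and 2786 at 32 h, against 6917 and 6879 at 28 h (-1.61 ± 0.18, adjusted p = 9.10e-05). Both are channels of the plasma membrane, and they moved in opposite directions. For OsPIP2;7 the mean was 10973 at 20 h and 3797 at 24 h, so its 28 h level was itself above the sample before it. OsTIP4;1, a channel of the vacuole membrane, fell (-0.66 ± 0.12, adjusted p = 0.0031), though not without the first 28 h replicate (adjusted p = 0.1003). The potassium transporter HAK17 fell (-1.23 ± 0.24, adjusted p = 0.00633), though not without the second (adjusted p = 0.134).

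Among the remaining named decreases were genes of signalling and defence. OsBBD1, a nuclease of the defence response, gave 392 and 364 at 8 h and 723 and 482 at 32 h, against 3686 and 3482 at 28 h (-2.84 ± 0.21, adjusted p = 1.61e-06), and its mean had been 11266 at 20 h. OsSAPK9, a protein kinase of the SnRK2 family that acts in abscisic acid and osmotic stress signalling, gave 193 and 222 at 8 h and 369.8 and 325 at 32 h, against 1462 and 1226 at 28 h (-2.19 ± 0.23, adjusted p = 4.00e-05). OsITPK3, an inositol phosphate kinase, gave 419.5 and 431 at 8 h and 423 and 384 at 32 h, against 1407 and 1598 at 28 h (-1.78 ± 0.12, adjusted p = 3.04e-07). In all 3 the end-of-night arrays lay well under both 28 h arrays, and for OsITPK3 the 8 h and 32 h arrays were at one level.

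The chitinase Cht5 gave 1002 and 859 at 8 h and 2082 and 1832 at 32 h, against 4299 and 3593 at 28 h (-1.52 ± 0.28, adjusted p = 0.00415) and Cht4 fell with it (-1.11 ± 0.25, adjusted p = 0.0142), 2 of the 3 decreases among 15 pathogenesis-related genes, beside 3.55% of all tested probe sets. The third, OsWRKY62 (-0.52, adjusted p = 0.047), lost its call with quantile normalization and with median centring. CEBIP, the receptor protein that binds chitin fragments, rose and gave 6341 and 6890.4 at 8 h and 4561 and 4923 at 32 h, against 1570.5 and 1615 at 28 h (1.79 ± 0.15, adjusted p = 4.54e-06). Its 28 h level stood above its means of 268 at 24 h and 244 at 20 h. The call of Cht5 was lost without the first 28 h replicate (adjusted p = 0.0827), and that of Cht4 without the first or the second (0.0936 and 0.144).

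KS10, a diterpene cyclase, gave 139 and 122 at 8 h and 849 and 521 at 32 h, against 1604 and 1347 at 28 h (-2.16 ± 0.55, adjusted p = 0.0307). The 32 h arrays were several times the 8 h arrays, and without the 8 h arrays the difference was -1.11 and did not pass (adjusted p = 0.0893). Leaving out any of 4 single arrays also lost the call (adjusted p from 0.0676 to 0.243; both 8 h and both 28 h replicates). The laccase LAC24 gave 875 and 809.8 at 8 h and 2079.7 and 1607 at 32 h, against 4296 and 3987 at 28 h (-1.71 ± 0.31, adjusted p = 0.00338) and mfs1 had a difference of -1.49 (adjusted p = 0.00364). PRMT10, a protein arginine methyltransferase, gave 277 and 259.5 at 8 h and 511 and 531 at 32 h, against 940.3 and 982 at 28 h (-1.29 ± 0.23, adjusted p = 0.00322, and 0.103 in the fit of the 6 arrays alone). The transporter ABCG45, the glucosidase BGLU18 and PNP2 fell by less, with differences of -1.41, -1.25 and -1.203 (adjusted p = 0.0032, 0.00763 and 0.0131). Without the first 28 h replicate the calls of LAC24, mfs1, ABCG45, BGLU18 and PNP2 were lost (adjusted p = 0.0588, 0.0717, 0.0516, 0.0707 and 0.138), and without the second those of BGLU18 and PNP2 (0.0922 and 0.0937).

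Calls in both directions were found in the heat shock, kinase and auxin lists, beside 3.12% higher and 3.55% lower over all probe sets. Among 34 heat shock genes 2 rose and 3 fell, and with the replicate block 2 rose and 5 fell, beside 5.18% and 6.87% of all probe sets. The heat stress factors HSF03 and HSF01 fell (-1.31 ± 0.28, adjusted p = 0.0121 and -1.02 ± 0.18, adjusted p = 0.00309), and HSP18.6, a small heat shock protein, rose (1.01 ± 0.26, adjusted p = 0.0303). All 3 calls were lost when single arrays were left out: without the first 28 h replicate the adjusted p was 0.0626 for HSF03, 0.0508 for HSF01 and 0.211 for HSP18.6, without the second 0.151 for HSF03 and 0.164 for HSP18.6, and without the second 32 h replicate 0.0559 for HSP18.6. Of 51 calcium and stress kinases 4 rose and 3 fell. With the replicate block 4 rose and 8 fell, where 5.18% of all probe sets were higher and 6.87% lower. CIPK10, a kinase that pairs with calcium sensors, gave 57.6 and 90.3 at 8 h and 56.3 and 58.6 at 32 h, against 217 and 153 at 28 h (-1.15 ± 0.16, adjusted p = 0.000551), while the other probe sets of the gene ranged from -0.85 to 0.03. CIPK7 fell as well (-0.67 ± 0.11, adjusted p = 0.0014), while its other probe set had a difference of -0.08 and the call was lost in the fit of the 6 arrays alone (adjusted p = 0.0689). Of 45 auxin genes 2 rose, among them the auxin response factor ARF9 (0.90 ± 0.15, adjusted p = 0.00175, and 0.0608 in the fit of the 6 arrays alone), and 3 fell. With the replicate block 2 auxin genes rose and 6 fell, beside 5.18% and 6.87% of all probe sets. Of the other hormone lists, gibberellin (13 genes) and jasmonate (31) held 1 lower call each, cytokinin (21) 1 higher call and ethylene (9) none. With the replicate block gibberellin held 2 lower calls, jasmonate 1 higher and 2 lower, cytokinin 2 higher and ethylene none.

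Several lists held no call, which in lists of 6 to 25 genes is little different from the 6.66% called over all probe sets. None of 25 cytosolic ribosome, 19 proteasome and ubiquitin, 13 antioxidant enzyme, 19 flowering, 9 ethylene and 6 light receptor genes passed in limma. At an unadjusted p under 0.05 there were 7, 3, 1, 1, 0 and 2 of them, in that order, where 4914 of all 24298 tested probe sets were. With the replicate block 1, 1, 1, 0, 0 and 2 passed, where 12.1% of all probe sets did. The ribosome list had a median of -0.21 and the proteasome list of -0.01. Of 5 histone genes 2 fell, of 29 genes matched by symbol to cell division 2 fell, and of 39 cell wall genes 1 fell, beside 3.55% of all probe sets. With the block these counts were 4, 3 and 2, beside 6.87% of all probe sets. The cell division list held cyclins such as CYCT1-1, whose role in division was not checked. All 5 calls were lost when single arrays were left out, those of H2B.6, H2B.11 and CYCD4-1 on leaving out any of 4 arrays (both 8 h and both 28 h replicates; adjusted p from 0.0587 to 0.383), that of CYCT1-1 any of 5 (all but the first 32 h replicate; 0.0689 to 0.260) and that of EXPB11 any of the 6 (0.0605 to 0.246).

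**Figure D4:**
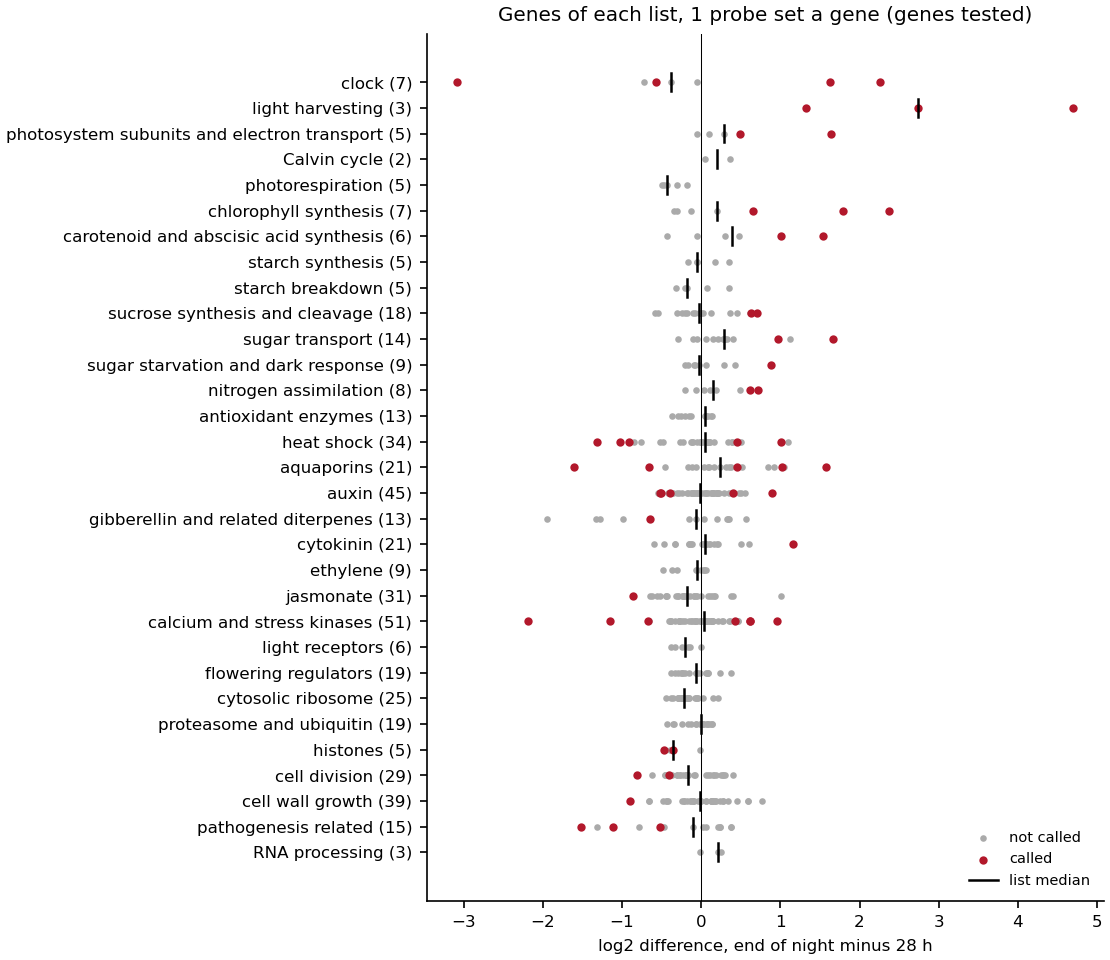
Log2 difference, end of night minus 28 h, of each gene of each list (1 probe set a gene, number tested in brackets), with called genes in red, the others in grey and the list median as a bar. The light-harvesting genes all lie above 1, the clock genes spread from -3.08 to 2.26, and the ribosome and proteasome genes stay within 1 of 0.

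The end-of-night samples of the 2 days were also set against each other. At 32 h 692 probe sets (2.85%) were higher and 1045 (4.3%) lower than at 8 h, and with the replicate block 3640 (15%) differed, 1747 (7.19%) higher and 1893 (7.79%) lower. Leaving out any 1 of the 4 arrays brought the 1737 calls (7.15%) down to between 822 (without the first 8 h replicate) and 958 (without the second 32 h replicate). Among the named genes KS10, LAC24, Cht5 and Cht4 were higher at 32 h (2.10, 1.09, 1.05 and 0.97), each thus nearer to its 28 h level, as was OsPIP2;7 (0.68, adjusted p = 0.00133). PORA, OsPRR95 and CEBIP were lower at 32 h (-1.14, -0.82 and -0.48). For OsLHY, OsPSAG, CHLH, OsITPK3 and GLN1-1 the 32 h minus 8 h differences were -0.09, -0.04, 0.01, -0.07 and 0.04, and none passed. Both comparisons use the same 8 h and 32 h arrays. Without the 32 h arrays the end-of-night comparison called 3791 probe sets and without the 8 h arrays 1124.

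The same comparison was made in flag leaves, taken from field-grown plants 3 months of age that had been moved to a warmer greenhouse, so leaf type, age and growing conditions cannot be told apart. There too 8 h and 32 h formed 1 group, and they were not tested against each other. The change differed between the tissues for 4072 of 24514 probe sets (16.6%), with the seedling change above the flag change for 2335 (9.53%) and below it for 1737 (7.09%). Median centring gave 3887 calls (15.9%), split into 1656 (6.76%) above and 2231 (9.1%) below, with a median difference over all probe sets of -0.06 in place of 0.07. Without the first 28 h seedling replicate 2420 passed. CRSH2, a plastid enzyme of the guanosine tetraphosphate alarmone, gave 898 and 988 at 8 h and 839 and 977 at 32 h, against 380.5 and 457 at 28 h in seedling leaves (1.09 ± 0.19, adjusted p = 0.00276; adjusted p = 0.0716 without the first 28 h replicate). In flag leaves it gave 25002 and 20923 at 8 h and 8159 and 9536 at 32 h, against 91.3 and 115 at 28 h. The seedling change was the smaller by far (seedling minus flag -5.64 ± 0.59, adjusted p = 3.52e-07).

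OsSPS2 gave 824 and 1029 at 8 h and 759 and 732 at 32 h, against 488 and 507 at 28 h in seedling leaves. In flag leaves it gave 5228 and 8905 at 8 h and 4699 and 5347 at 32 h, against 339.8 and 427 at 28 h (seedling minus flag -3.13 ± 0.34, adjusted p = 5.75e-07). OsPSY2 and CAO rose in both tissues and by less in seedling leaves (seedling minus flag -2.17 ± 0.28, adjusted p = 7.10e-06, and -1.17 ± 0.20, adjusted p = 0.000234). The same held for 0sFRO1 (-2.15 ± 0.41, adjusted p = 0.000632), OsSWEET2b (-2.24 ± 0.41, adjusted p = 0.000388) and the plastid malic enzyme ME6 (-2.21 ± 0.28, adjusted p = 4.70e-06), whose seedling difference was 0.82 (adjusted p = 0.101 without the second 28 h seedling replicate). LAC24 and BGLU18 fell in seedling leaves (-1.71 and -1.25) where the flag differences were 0.53 and 1.05, and the tissue difference passed for both (-2.24 ± 0.53, adjusted p = 0.00388, and -2.30 ± 0.46, adjusted p = 0.00102). LAC24 was near the floor in flag leaves, with 31.1 and 32.8 at 8 h and 22.8 and 51.7 at 32 h, against 22.6 and 5.9 at 28 h. For RCABP89, OsLHY and OsITPK3 the tissue difference did not pass, at -1.196 ± 0.58, adjusted p = 0.176, -0.23 ± 0.25, adjusted p = 0.591 and 0.03 ± 0.25, adjusted p = 0.959.

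**Figure D5:**
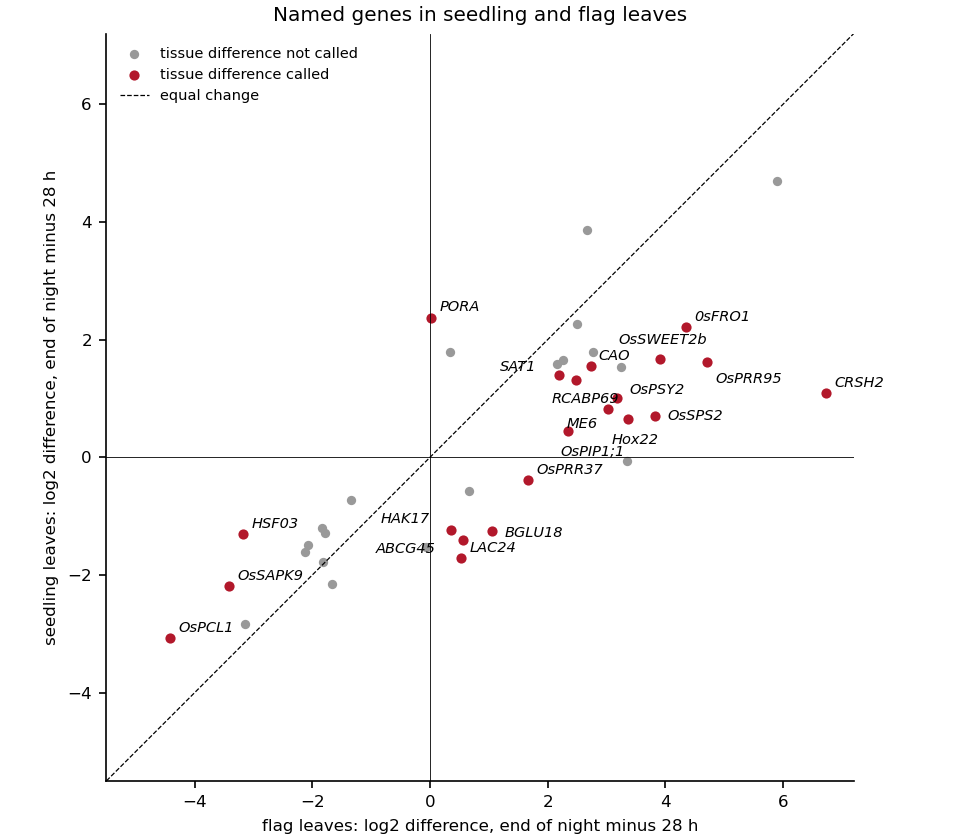
Log2 difference, end of night minus 28 h, of named genes in seedling leaves (vertical axis) and flag leaves (horizontal axis), with genes whose change differed between tissues in red and the line of equal change dashed. CRSH2 lies at 1.09 in seedling and 6.73 in flag leaves, most red points above 0 lie under the line, and PORA lies at 2.37 in seedling and 0.02 in flag leaves.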

How the data were processed

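Total RNA of seedling leaves was hybridised by the authors to 57K Affymetrix rice arrays, 2 biological replicates at each of 10 times. The deposited signal intensities were made by the authors with GCOS and MAS5 (versions not given in the sources used here) and scaled to a target of 500. They are linear, and precision is limited by how many arrays there were. Groups came from the age label of each sample, because the description label names the first time point for all samples. Log2(signal + 32) of 24298 rice probe sets with a mean of at least 100 over the 20 seedling arrays was fitted with limma 3.58.1 in R 4.3.3, with 8 h and 32 h as 1 group and the other 8 times as groups, and p-values were adjusted by Benjamini-Hochberg at 0.05. The difference from flag leaves was an interaction contrast over 40 arrays. Samples of 1 replicate number deviated together in all 45 pairs of time points (correlation 0.29 to 0.56), so the numbers pair the samples. The main counts come from the fit without a replicate block. The fit with the block is given for many of the counts it changed, but not for every named gene whose call it added. Probe sets were named through the platform annotation and RefSeq: 22436 had 1 gene, 95 several and 34663 none. A gene name was held by 3194 of the 57194 rice probe sets. Lists used symbols and synonyms, with the probe set of highest mean for each gene, and no gene of the root and chloroplast ribosome lists matched. Genes without a matching symbol or synonym were in no list, although their probe sets were tested where they passed the signal filter. Named genes were the 15 largest increases and decreases among called, non-overlapping, annotated genes with a mean of at least 200 in the higher group, all clock genes, up to 4 genes a list with the smallest adjusted p, loci the study had followed, and the 6 annotated genes with the smallest adjusted p for the tissue difference among those called. Members and lists were chosen with earlier results of these data known. Promoter motifs were not analysed here. The labels call the replicates biological without naming separate plants or sowings, so p-values measure the spread between these samples. The scripts were tested on simulated data.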

Additional observations from a re-analysis of the deposited data

Results flagged for a closer look

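The values below cover 77 probe sets of named genes called or otherwise described above, a restriction set after a longer list had been seen. They do not take in every gene described. NIA1 and OsSPS4F, which passed only with the replicate block, were left out. The tissue difference passed for both in limma (-1.89, adjusted p = 0.0018, and -0.79, adjusted p = 0.00796). Among these 77 probe sets, 28 changed between the end and the middle of the night by a different amount in seedling and flag leaves (limma interaction, adjusted p under 0.05), 6 with the seedling change above and 22 with it below the flag change. Over all probe sets 16.6% differed, 2335 above and 1737 below, and 6 of the 28 (CRSH2, OsSPS2, OsPSY2, ME6, Hox22 and OsPIP1;1) had been named for their small p in this very test, so the count says nothing of the named genes as a set. The seedling minus flag difference in log2 was 2.35 for PORA, 2.18 for OsTIP4;1, 1.87 for HSF03, 1.35 for OsPCL1, 1.23 for OsSAPK9 and 0.75 for CIPK7. It was -5.64 for CRSH2, -4.25 for HSP18.6, -3.61 for LOC_Os07g22930, -3.13 for OsSPS2, -3.08 for OsPRR95, -2.72 for Hox22 and -2.41 for EXPB11. It was -2.30 for BGLU18, -2.24 for LAC24, -2.24 for OsSWEET2b, -2.21 for ME6, -2.17 for OsPSY2, -2.15 for 0sFRO1, -2.04 for OsPRR37 and -1.98 for ABCG45. It was -1.90 for OsPIP1;1, -1.59 for HAK17, -1.17 for CAO, -1.17 for RCABP69, -1.05 for CHLP, -0.78 for SAT1 and -0.69 for GLN1-1. The flag change pools 8 h and 32 h, which were far apart for some of these genes. In flag leaves OsPRR95 gave 7689 and 11858 at 8 h and 1135 and 654 at 32 h, against 95.5 and 67.2 at 28 h. OsPRR37 gave 607 and 867 at 8 h and 90.8 and 115 at 32 h, against 70.5 and 67.7 at 28 h. For CAO the 2 times were closer, with 16809 and 21192 at 8 h and 15724 and 18544.5 at 32 h. Of the 28, 15 passed under all 20 alternatives of the tissue fit and 13 were lost under at least 1. HAK17 was lost with 64 added before log2, with no filter and on leaving out single arrays. OsPRR95, HSF03, EXPB11 and CIPK7 were lost on leaving out single 28 h arrays of either tissue. With quantile normalization the difference was no longer called for GLN1-1 (-0.32, adjusted p = 0.338), SAT1 (-0.38, 0.267), RCABP69 (-0.60, 0.183), CHLP (-0.57, 0.0797), OsPCL1 (1.25, 0.0727), OsPRR37 (-2.05, 0.0542) and OsSAPK9 (1.02, 0.0523), and with median centring for OsPCL1 (1.22, 0.0608). PORA in flag leaves gave 148 and 60.9 at 8 h and 3.1 and 4.3 at 32 h, against 37.2 and 32.9 at 28 h, and its tissue difference had adjusted p = 0.0539 with median centring. ABCG45 was near the floor in flag leaves, with 30.5 and 67.8 at 8 h and 4.9 and 3.7 at 32 h, against 2.6 and 5.8 at 28 h. EXPB11 was low there too, with 366.5 and 72.3 at 8 h and 28.8 and 34.3 at 32 h, against 7.4 and 8.4 at 28 h.

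In CIPK10 1 of the 4 end-of-night arrays stood apart: the second 8 h replicate had a signal of 90.3, against 57.6, 56.3 and 58.6 on the others, and the gap was 0.932 of the range. It was the only one of the 77 groups so marked. The chance rate of about 5% holds for 4 values from a single population. These arrays were replicate pairs from different days, so that rate cannot be set beside the count.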

How the results depend on the processing

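None of the 70 named genes called changed direction under the 18 alternatives, and 21 of them kept their call under all 18, among them RCABP89, CAB2R, PORA, OsLHY, CHLH, OsPSAG, CAO, OsPCL1, OsBBD1, OsSAPK9, OsITPK3 and OsPIP2;7. Each array left out in turn gave 512 to 2077 calls for the end against the middle of the night (lowest without the first 28 h replicate), 2420 to 4763 for the difference from flag leaves and 822 to 958 for 32 h against 8 h, and 28 of the 70 named genes kept their call under all 6 omissions. For the end against the middle of the night, 960 probe sets were called with no filter, 2929 with the replicate block, 460 with the 6 arrays only, 2691 with each time point as its own group, 3791 without the 32 h arrays and 484 with a log2 difference of at least 1. For 32 h against 8 h, 1089 were called with no filter and 3640 with the replicate block. The block took the call from none of the 70 and gave a call to 17 of the 78 named genes not called in the main fit. The 6-array fit took it from 46, the unfiltered fit from 23, and the fit without the 8 h arrays from 20. Counting all probe sets of a gene gave 55 list genes called in place of 54. The cause of these shifts was not tested. Signals near the floor limit fold changes, since 32 was added before log2.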
